A study of Homo sapiens with 12 samples.

Results

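The 8 genes described here encode abundant proteins of the growth cone, the motile tip of an extending neurite: BASP1, GAP43, MARCKS, MARCKSL1 and the stathmins STMN1, STMN2, STMN3 and STMN4. They were taken by symbol, and all 8 were found among the 59087 features of the count table. The set was chosen by the level of BASP1 mRNA, which was nearly lost in 1 of the 2 libraries of 1 FMR1-knockout line. BASP1 levels are therefore given as a description with no p-value. The other 7 were added as relatives by function and were tested. All 8 passed the filter on low counts.

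Messenger RNA was sequenced from SH-SY5Y, an established human neuroblastoma cell line resembling immature sympathetic neurons. The knockout (KO) cells carry a disrupted FMR1, which encodes the RNA-binding translational regulator FMRP, and come from 3 separately generated lines, numbered 1 to 3. The reference is the unedited wild-type (WT) SH-SY5Y line. Both genotypes were grown for 2 weeks in SILAC medium with dialyzed serum, carrying arginine and lysine of heavy or of ordinary (light) isotopes. Each line gave 1 heavy and 1 light library, against 3 heavy and 3 light WT libraries, 12 in all. The p-values for a single line therefore measure the spread between libraries, and the effect of losing FMR1 cannot be told apart from the making of a line. Nothing in the labels says that the WT libraries came from separately derived cells.

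BASP1, GAP43 and MARCKS share no overall sequence but a mode of action: they sit on the inner face of the plasma membrane, bind the lipid PIP2 and calmodulin, and are released by calcium and protein kinase C, which alters the actin cortex. MARCKSL1 is the close relative of MARCKS. Stathmins bind free tubulin and promote the shrinking of microtubules until kinases phosphorylate them. STMN1 is the widespread cytosolic form; STMN2, STMN3 and STMN4 are neuronal, carry a membrane anchor and gather in growth cones. GAP43 and STMN2 are in common use as markers of neuronal differentiation in neuroblastoma cells.

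The libraries held between 25935152 and 40257027 counts. FMR1 mRNA, the target, stood at 22.4 and 11.4 CPM (counts scaled to library size and composition) in line 1 (heavy, then light medium), at 12.8 and 11.5 CPM in line 2 and at 7.19 and 9.06 CPM in line 3. WT libraries lay between 35.9 and 42.0 CPM, with a median of 37.3 CPM. The library labelled line 1, heavy, held 58.3% of the WT mean of its medium, and the other 5 KO libraries 18.7% to 33.4%. Over 16704 genes tested, the median absolute log2 ratio to WT was 0.158 in that library and 0.222 in the light library of line 1. It was 0.258 and 0.247 in line 2 and 0.152 and 0.119 in line 3 (heavy, then light). Each WT library, set against the other WT libraries of its medium, gave 0.0754 to 0.142. BASP1, MYO10, ST6GAL1, CDCA7L and NEXMIF, described below, stood at 44.1% to 49.9% of WT in the heavy library of line 1 and under 3% in its light library. Whether the heavy library or its culture was mixed was not tested, so its values, and the means of line 1 that hold it, may not stand for line 1 alone. Fits for line 1 are therefore also given without that library. Of 12 sympathetic neuroblastoma markers, 11 averaged over 1 CPM and TH did not; their summed level was 5610 to 8250 CPM in KO and 7969 to 8795 CPM in WT libraries. Of 6 glial and Schwann cell markers, SOX10 and GFAP were at 0 throughout, and the 6 summed to 2.01 to 6.03 CPM in KO and 2.03 to 2.84 CPM in WT. The mesenchymal markers PRRX1 and TWIST2 were at 0; the 9 of that list summed to 69.3 to 84.3 CPM in KO and 72.6 to 78.8 CPM in WT. DCN, PTPRC and HBB were at 0 as well; with LUM, the 4 fibroblast and blood markers summed to 0.311 to 1.07 CPM in KO and 1.16 to 1.81 CPM in WT. These sums hide moves in both directions. Of 12 sympathetic markers tested, 2 rose and 5 fell in line 1, 2 rose and 8 fell in line 2, and 0 rose and 1 fell in line 3. Of 6 mesenchymal markers tested, 2 rose and 3 fell in lines 1 and 2 each, and 1 rose in line 3. VIM rose, with log2 1.43 in line 1, 1.44 in line 2 and 0.45 in line 3, and CD44 stood 2.57-fold over WT in line 1 and 7.22-fold in line 2, while FN1 was at 0.358 and 0.191 of WT in lines 1 and 2 (edgeR, all with adjusted p of at most 0.0235). CD44 levels were low throughout, at 0.329 to 0.612 CPM in WT. They were 0.872 and 1.56 CPM in line 1 and 3.61 and 3.28 CPM in line 2 (heavy, then light). Of 3 glial markers tested, S100B and ERBB3 rose in lines 1 and 2. Lines 1 and 2, where GAP43, STMN4 and MARCKS moved most, are also the lines in which these markers moved; their part in the results was not tested.

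Promoter sequence from RefSeq (GRCh38.p14) was found for 6 of the 8 genes. The 250 bases before the start are shown for BASP1, the gene with the largest loss, and for MARCKS, the other member of the membrane group that was low in lines 1 and 2. The BASP1 window is chr5:17216573-17216822 and the MARCKS window chr6:113857095-113857344, both on the plus strand. The BASP1 window precedes the RefSeq start, which lies downstream of the GENCODE gene start given below and inside that longer gene. Capitals mark the GC box GGGCGG and the CCAAT box CCAAT on either strand.
BASP1: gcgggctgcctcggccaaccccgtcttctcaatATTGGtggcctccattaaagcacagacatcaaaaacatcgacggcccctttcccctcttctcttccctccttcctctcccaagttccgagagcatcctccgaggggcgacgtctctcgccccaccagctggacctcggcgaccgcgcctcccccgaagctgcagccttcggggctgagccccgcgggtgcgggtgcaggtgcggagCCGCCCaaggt
MARCKS: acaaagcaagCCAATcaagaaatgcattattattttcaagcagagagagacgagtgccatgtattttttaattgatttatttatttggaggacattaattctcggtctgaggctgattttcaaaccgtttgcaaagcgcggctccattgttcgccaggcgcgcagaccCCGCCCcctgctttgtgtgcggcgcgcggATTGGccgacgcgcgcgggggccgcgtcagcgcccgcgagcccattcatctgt
The BASP1 window was 65.6% G and C, with 1 GC box and 1 CCAAT box, and the MARCKS window 52.8%, with 1 GC box and 2 CCAAT boxes. Over 35116 promoters the median was 58%; 42.6% held a GC box and 32% a CCAAT box. The GAP43 window was 51.6% G and C, with 0 GC boxes and 1 CCAAT box. Both motifs are common, and these matches describe the letters and show no binding.

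BASP1 (ENSG00000176788.8; chromosome 5, 17065598 to 17276843, plus strand, GRCh38, GENCODE 29) was nearly absent from 1 library. The line 1 light library held 47 BASP1 counts, 1.33 CPM (exact Clopper-Pearson 95% interval 0.977 to 1.77 CPM, counting error only). The line 1 heavy library held 1480 counts, 43.0 CPM (interval 40.9 to 45.3 CPM). Line 2 had 57.5 and 61.8 CPM and line 3 had 74.8 and 73.3 CPM in heavy and light medium. WT libraries ranged from 84.6 to 90.6 CPM, with a median of 87.9 CPM. All 6 KO libraries thus lay below every WT library, but only the light library of line 1 came near 0, at 1.52% of the WT mean of its medium, 65.7-fold lower. The heavy library of the same line held 48.6%, line 2 held 64.9% and 70.7%, and line 3 held 84.4% and 83.9%. In bulk RNA, a loss in all cells and a smaller share of cells with the transcript cannot be told apart. The antisense gene BASP1-AS1, which overlaps BASP1, never exceeded 0.0989 CPM, and the pseudogene BASP1P1 had 0 counts.

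**Figure D1:**
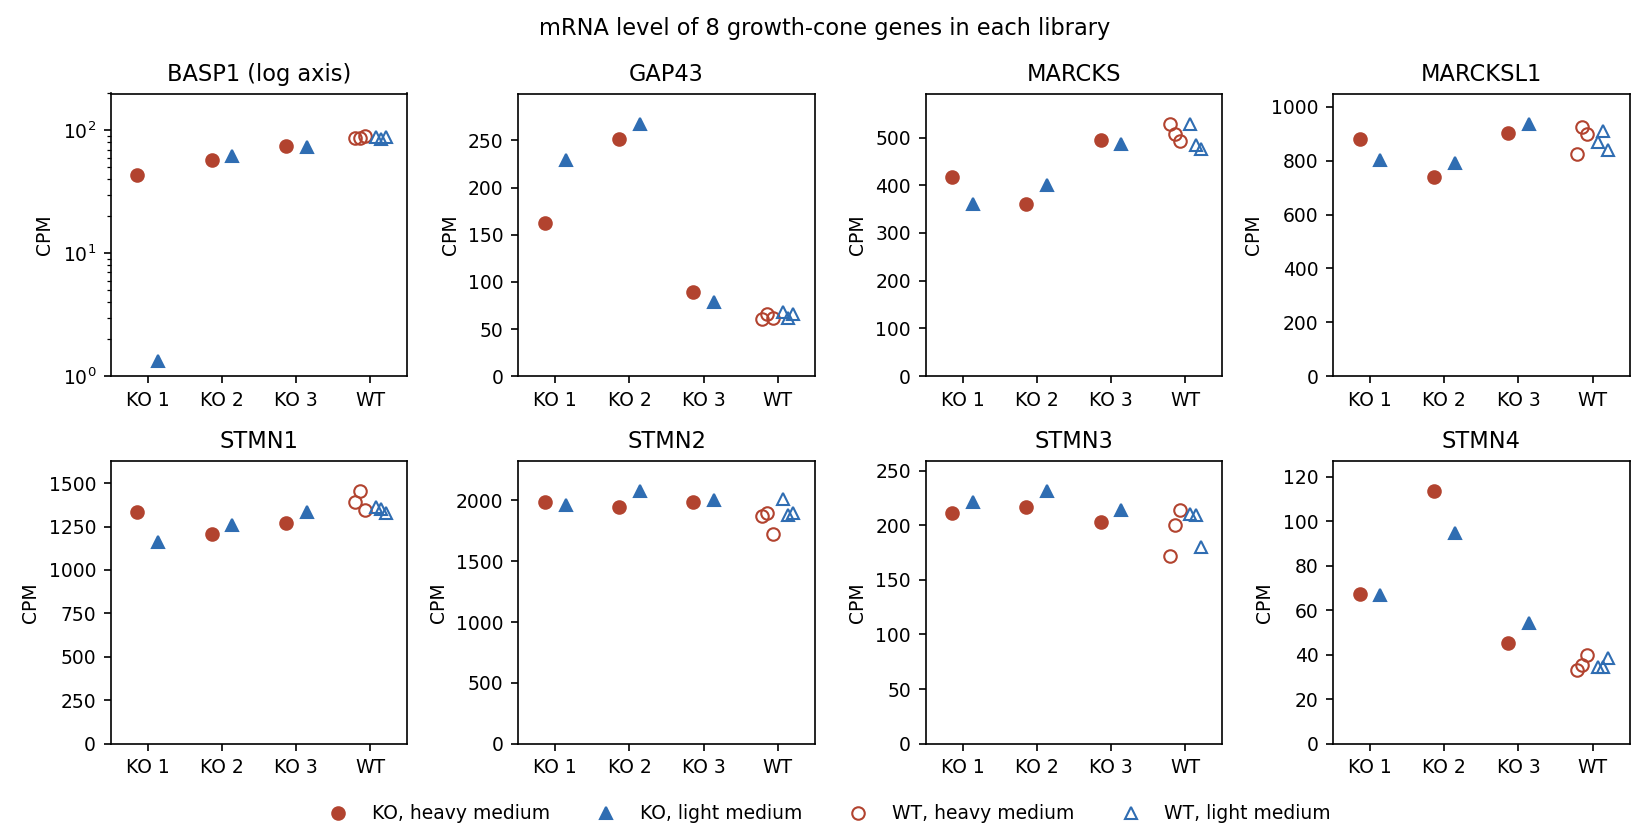
CPM of each of the 8 genes in every library, KO lines 1 to 3 left of WT; circles are heavy and triangles light medium, filled symbols KO and open symbols WT, 1 symbol per library. The BASP1 panel has a log axis and shows 1 library at 1.33 CPM, while GAP43 and STMN4 lie above WT in all 6 KO libraries.

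A few other genes shared the BASP1 pattern in line 1 light. These limits were set with the BASP1 values known, so the count is a description and shows nothing particular about BASP1. Of 9619 tested genes with a WT mean of at least 10 CPM, 3 (0.0312%) were at 10% of WT or less in line 1 light and at 50% or more in lines 2 and 3 light. BASP1 was the most abundant. The other two were ST6GAL1, which adds sialic acid to glycoproteins, at 0.906% of WT, and NEXMIF, a regulator of neurite extension, at 2.93%. In line 1 heavy these 3 genes stood at 44.1% to 49.9% of WT. Under the same limits 0 genes were low in line 2 light alone or in line 3 light alone; in heavy medium 10 genes (0.104%) were low in line 2 alone, and 0 in line 1 alone or line 3 alone.

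The genes whose log2 CPM followed BASP1 most closely over the 12 libraries, among 1733 whose WT and line means spanned at least 1 log2 unit, were ST6GAL1 (Pearson r 0.995), CDCA7L (0.990), NEXMIF (0.969) and CCNA1 (0.940). The points share libraries, and the r values rest in part on line 1 light: without that library they were 0.877, 0.886, 0.502 and 0.696 over 11 libraries. CDCA7L, a nuclear protein that binds MYC, was at 1.10% of WT in line 1 light and 47.3% in line 1 heavy. CCNA1, a cyclin, was at 21.8% and 66.6%.

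**Figure D2:**
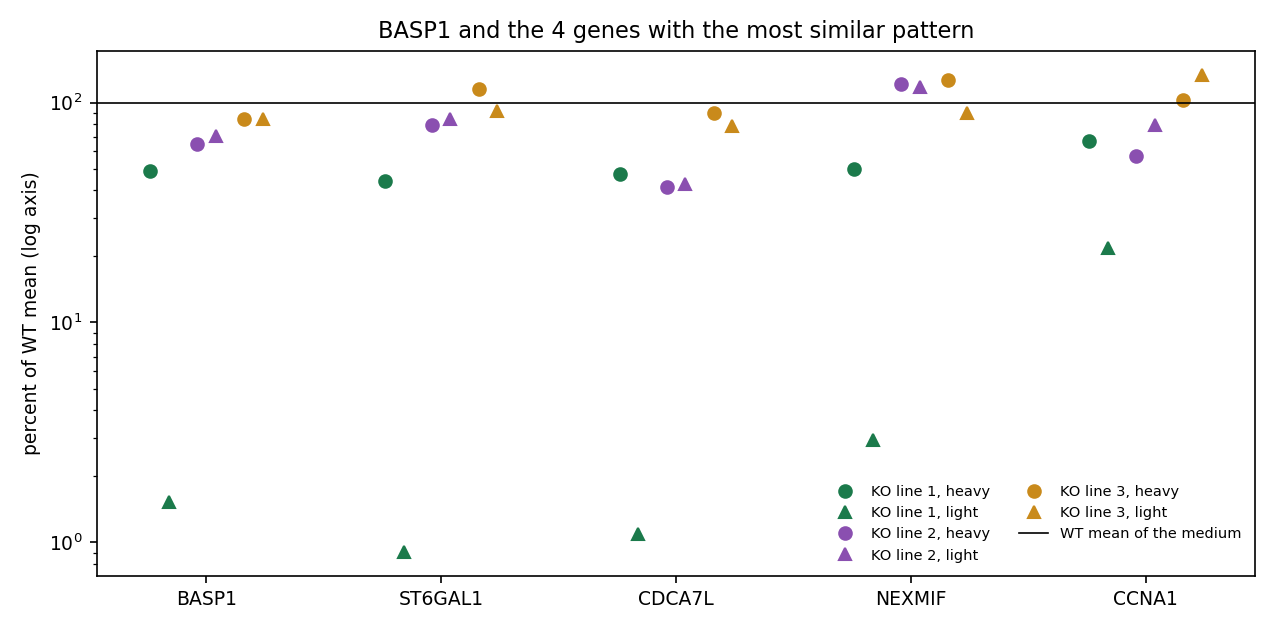
Percent of the WT mean of the same medium (log axis) for BASP1 and the 4 genes most like it, in each KO library; circles are heavy and triangles light medium. BASP1, ST6GAL1, CDCA7L and NEXMIF lie under 3% in line 1 light and between 44.1% and 49.9% in line 1 heavy.

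The nearest tested protein-coding neighbour of BASP1 was low too, in lines 1 and 2. MYO10 (chromosome 5, 16661914 to 16936276, minus strand), an unconventional myosin of filopodium tips, has no tested protein-coding gene between itself and BASP1. Heavy and light libraries held 8.17 and 0.340 CPM of MYO10 in line 1, 0.987 and 0.772 CPM in line 2, and 15.5 and 16.6 CPM in line 3, against a WT mean of 16.9 ± 0.791 CPM (SD, n = 6). In percent of WT, line 1 was at 48.3% and 2.02%, line 2 at 5.84% and 4.60%, and line 3 at 91.8% and 98.7%. MYO10 fell in line 2 (log2 -4.27, SE 0.878, edgeR adjusted p = 0.00584); in line 1 it had -2.09 (adjusted p = 0.0523). It fell there once the line 1 heavy library was left out (-5.61, SE 0.234, adjusted p = 1.37e-13). Of the next genes, RETREG1, a receptor for autophagy of the endoplasmic reticulum, was at 131% to 288% of WT in the 6 KO libraries. The WT mean of RETREG1 was only 2.96 CPM. ZNF622 was at 93.9% to 115% and MARCH11 at 81.8% to 118%. FBXL7, a ubiquitin ligase subunit and the farthest of them (15500196 to 15939795), was low in the same lines to a smaller extent, at 51.2% to 72.9% in lines 1 and 2 and 89.0% and 92.7% in line 3. No protein-coding gene that started within 2 Mb on the other side of BASP1 passed the filter on low counts.

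**Figure D3:**
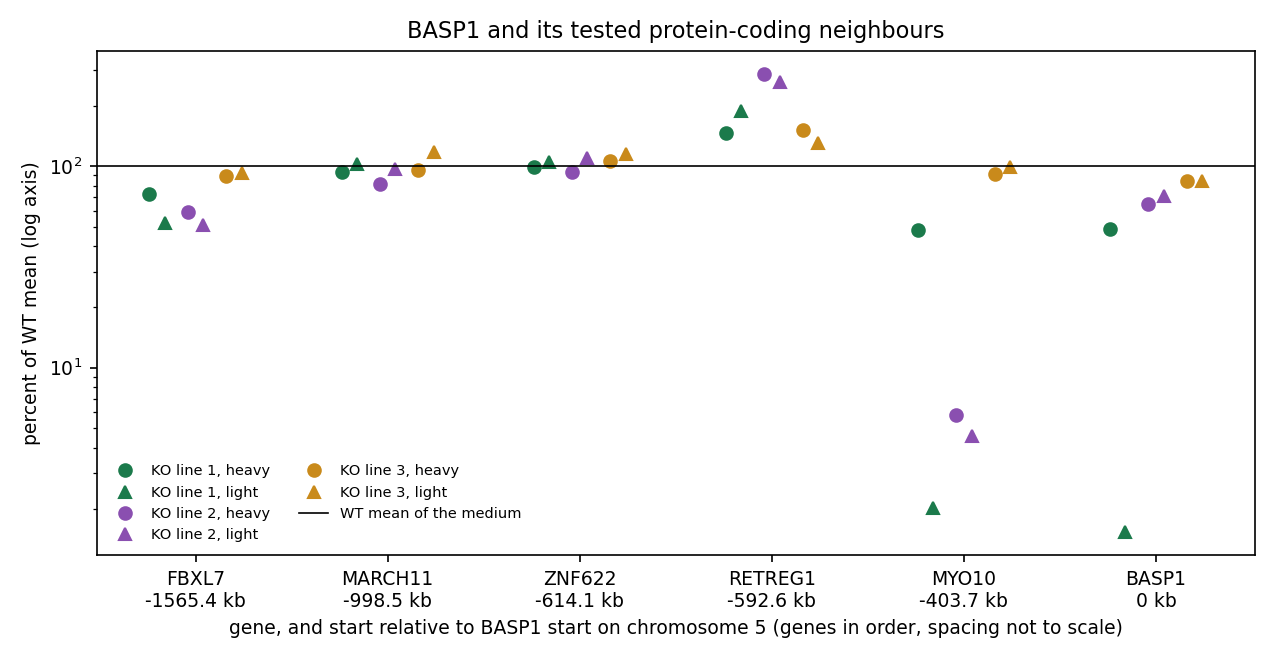
Percent of the WT mean of the same medium (log axis) in each KO library for BASP1 and the tested protein-coding genes that start within 2 Mb of it, in chromosome order. MYO10 is at 2.02% in line 1 light and at 5.84% and 4.60% in line 2, where BASP1 is at 64.9% and 70.7%.

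GAP43 (ENSG00000172020.12; chromosome 3, 115623324 to 115721490, plus strand), the growth-associated protein of regenerating axons, rose in every line. Heavy and light libraries held 163 and 230 CPM in line 1, 251 and 268 CPM in line 2, and 88.8 and 78.9 CPM in line 3. WT libraries ranged from 60.8 to 68.0 CPM, with a median of 63.6 CPM. No KO library overlapped WT, and line 3 was much nearer to WT than lines 1 and 2. The fold over WT was 3.05 in line 1 (log2 1.61, SE 0.084, edgeR adjusted p = 4.16e-09), 4.06 in line 2 (log2 2.02, SE 0.083, adjusted p = 1.15e-10) and 1.31 in line 3 (log2 0.39, SE 0.09, adjusted p = 0.0187). The lines differed from each other (adjusted p = 5.35e-07). Without the heavy library of line 1 the change in that line was 1.84 on the log2 scale (adjusted p = 5.13e-14). The line 3 call did not survive each change: without line 3 heavy its adjusted p was 0.484, without WT heavy 1 it was 0.0639, and with the replicate number as a block 0.185. In all 6 KO libraries GAP43 lay above and BASP1 below every WT library, so the opposite directions were not particular to line 1. GAP43 was at 3.53 times WT in line 1 light, where BASP1 was at 1.52%. In line 2 it was at 4.01 and 4.11 times WT (heavy, then light), with BASP1 at 64.9% and 70.7%. The BASP1 levels are a description, since the set was chosen by them.

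MARCKS (ENSG00000277443.2; chromosome 6, 113857362 to 113863471, plus strand), the main protein kinase C substrate of the group, fell in lines 1 and 2. Heavy and light libraries held 416 and 361 CPM in line 1, 362 and 401 CPM in line 2, and 495 and 486 CPM in line 3. WT libraries ranged from 476 to 529 CPM, with a median of 499.9 CPM. Lines 1 and 2 lay below the WT range and line 3 within it. The log2 fold change was -0.37 in line 1 (SE 0.062, edgeR adjusted p = 0.000175), -0.40 in line 2 (SE 0.062, adjusted p = 4.28e-05) and -0.04 in line 3 (SE 0.06, adjusted p = 0.811), and the lines differed (adjusted p = 0.00164). Without line 1 heavy the value for line 1 was -0.48 (adjusted p = 7.04e-05).

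MARCKSL1 (ENSG00000175130.6; chromosome 1, 32333832 to 32336379, minus strand) fell in line 2. Heavy and light libraries held 881 and 801 CPM in line 1, 738 and 790 CPM in line 2, and 901 and 937 CPM in line 3, against 827 to 926 CPM in WT, with a median of 884 CPM. In line 2 the log2 fold change was -0.20 (SE 0.057, edgeR adjusted p = 0.00793); lines 1 and 3 had -0.06 (adjusted p = 0.446) and 0.06 (adjusted p = 0.592), and line 1 without its heavy library -0.14 (adjusted p = 0.169). The difference among lines passed (adjusted p = 0.0248), but not without line 2 heavy (0.207) or without line 3 light (0.171); without line 2 heavy the change in line 2 did not pass either (adjusted p = 0.207).

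STMN4 (ENSG00000015592.16; chromosome 8, 27235323 to 27258420, minus strand), the least abundant stathmin, also rose in every line. Line 1 was at 67.2 and 66.8 CPM (heavy, then light), line 2 at 113 and 94.6 CPM, and line 3 at 45.0 and 54.4 CPM. WT libraries ranged from 33.0 to 39.7 CPM, with a median of 35.1 CPM (WT light 3 was at 38.6 CPM). No KO library overlapped WT. The fold over WT was 1.86 in line 1 (log2 0.90, SE 0.084, edgeR adjusted p = 4.59e-07), 2.89 in line 2 (log2 1.53, SE 0.081, adjusted p = 1.67e-10) and 1.38 in line 3 (log2 0.47, SE 0.086, adjusted p = 0.00304). The lines differed (adjusted p = 5.01e-06). In line 3 the call was lost without the light library (adjusted p = 0.156) and with the replicate number as a block (0.101). Line 1 was as high without its heavy library, at 0.90 on the log2 scale (adjusted p = 1.08e-05).

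STMN1 (ENSG00000117632.22; chromosome 1, 25884181 to 25906991, minus strand) was slightly lower. Heavy and light libraries held 1334 and 1161 CPM in line 1, 1208 and 1262 CPM in line 2, and 1273 and 1331 CPM in line 3, against 1327 to 1453 CPM in WT, with a median of 1357 CPM. In line 2 it fell, at log2 -0.15 against WT (SE 0.055; edgeR, adjusted p = 0.0332). Line 1 had -0.14 (adjusted p = 0.069, or 0.0419 with no filter on low counts), -0.24 (adjusted p = 0.0126) without its heavy library and -0.04 (adjusted p = 0.806) without its light library; with the replicate number as a block its adjusted p was 0.181. Line 3 had -0.07 (adjusted p = 0.507). The line 2 call was lost without line 2 heavy (adjusted p = 0.411) and, by a smaller margin, without WT heavy 2, WT light 1 or WT light 2 (0.052, 0.0504 and 0.0547). It was also lost with the replicate number as a block (0.0639).

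STMN2 (ENSG00000104435.13; chromosome 8, 79610814 to 79666175, plus strand), also known as SCG10, differed little between KO and WT. KO libraries ranged from 1945 to 2076 CPM, with a median of 1987 CPM, and WT libraries from 1727 to 2009 CPM, with a median of 1890 CPM. The groups overlapped. The log2 fold change was 0.07 in line 1, 0.09 in line 2 and 0.08 in line 3 (SE 0.051 each), and none passed (edgeR adjusted p = 0.334, 0.147 and 0.403); the lines were not shown to differ (adjusted p = 0.959). Without its heavy library line 1 had 0.03 (adjusted p = 0.795).

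STMN3 (ENSG00000197457.9; chromosome 20, 63639705 to 63657682, minus strand) was at 203 to 231 CPM in KO, with a median of 216 CPM, and at 172 to 214 CPM in WT, with a median of 205 CPM. The groups overlapped. It had log2 fold changes of 0.13 in line 1 (edgeR adjusted p = 0.193, or 0.14 with 0.346 without its heavy library), 0.18 in line 2 (adjusted p = 0.0498) and 0.08 in line 3 (adjusted p = 0.614). The line 2 value was on the edge of the threshold: it did not pass with RLE factors (0.0699), in DESeq2 (0.0872), with the replicate number as a block (0.306) or in 11 of 12 fits that left out 1 library, where it lay at up to 0.291 (without line 2 light).

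**Figure D4:**
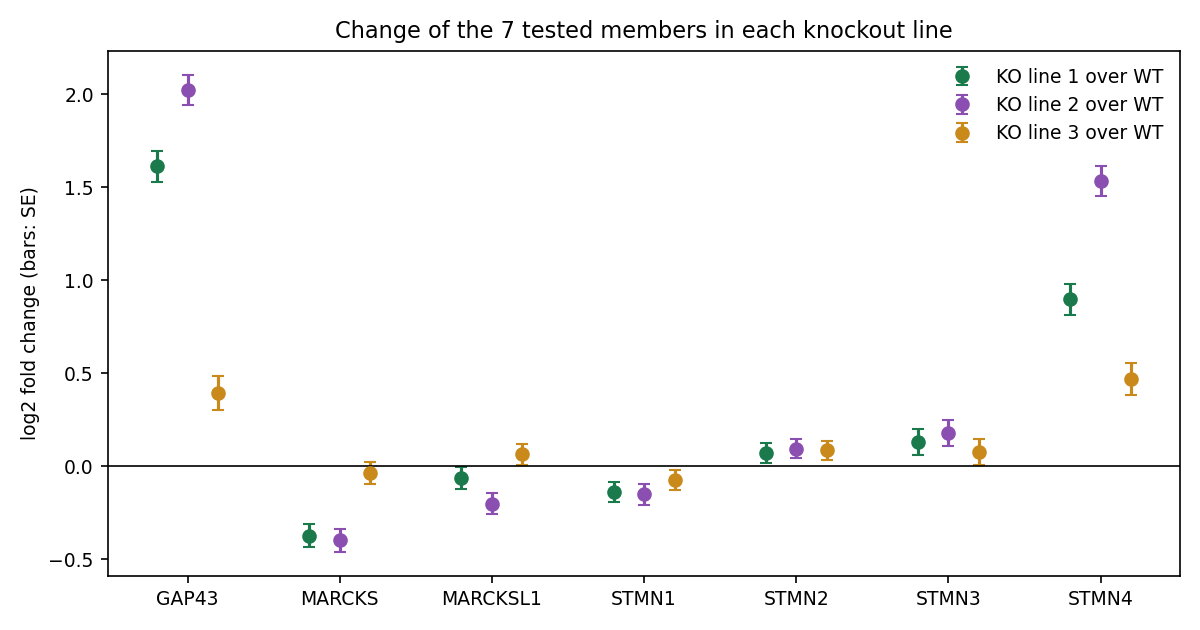
Log2 fold change over WT of the 7 tested members in KO lines 1, 2 and 3, with SE bars from the edgeR fit on 12 libraries. GAP43 and STMN4 are above 0 in all 3 lines and highest in line 2; MARCKS is below 0 in lines 1 and 2.

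Counted over the 7 tested members, 2 rose and 1 fell in line 1, 3 rose and 3 fell in line 2, and 2 rose and 0 fell in line 3. Over all 16704 genes tested, 28.2% passed in line 1 (15.4% higher, 12.8% lower), 43% in line 2 (22.9% higher, 20.1% lower) and 5% in line 3 (3.27% higher, 1.73% lower). The lines differed in 4 of the 7 members, GAP43, STMN4, MARCKS and MARCKSL1, where 23.2% of all genes passed. Every KO library lay above the WT range of its medium for GAP43 and STMN4, and 8.08% of all genes did so; 5.48% lay below it.

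With the 3 lines as 1 KO group against WT over both media, GAP43 averaged 180 ± 82.6 CPM in KO and 63.9 ± 2.89 CPM in WT (SD, n = 6 each), 1.49 higher on a log2 scale (SE 0.315; edgeR, adjusted p = 0.0106). STMN4 averaged 73.6 ± 25.7 CPM in KO and 36.0 ± 2.66 CPM in WT (log2 1.03, SE 0.208, adjusted p = 0.00783). MARCKS averaged 420 ± 58.8 CPM in KO and 503 ± 22.2 CPM in WT (log2 -0.26, SE 0.079, adjusted p = 0.0295). STMN1 averaged 1261 ± 68.3 CPM in KO and 1372 ± 44.7 CPM in WT (log2 -0.12, SE 0.042, adjusted p = 0.04995). MARCKSL1 (log2 -0.06, adjusted p = 0.454), STMN2 (0.08, 0.117) and STMN3 (0.13, 0.102) did not pass. So 2 members rose and 2 fell; of all genes 24.8% passed, 15% higher and 9.78% lower. None of the 7 passed on counts summed per line, where a line counts once: GAP43 had adjusted p = 0.114, STMN4 0.102, MARCKS 0.144 and STMN1 0.145, with 5 of 7 at an unadjusted p under 0.05. None passed in a single medium either, with GAP43 at log2 1.42 (adjusted p = 0.181) in heavy and 1.55 (0.154) in light medium, and STMN4 at 1.06 (0.217) and 1.00 (0.068).

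No member was shown to differ with the isotope of the medium. In edgeR 0 of 7 passed for heavy against light medium and 0 for its interaction with genotype, also 0 at an unadjusted p under 0.05 and 0 in DESeq2. The background was 0% in both comparisons, with 1099 and 149 of 16704 genes at an unadjusted p under 0.05 and 13 and 0 genes called by DESeq2. The largest member difference was that of GAP43, at log2 -0.10 (SE 0.064, adjusted p = 0.834). BASP1 averaged 58.4 CPM in heavy and 45.5 CPM in light KO libraries, a gap that came from line 1, and 88.5 and 87.3 CPM in heavy and light WT libraries.

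Levels of different genes were compared per length, as TPM (counts per base of transcript, scaled to a fixed total) over merged GENCODE 29 exons. STMN2 was the most abundant at 2494 ± 56.1 TPM in KO and 2461 ± 99.2 TPM in WT (SD, n = 6 each), rank 29 and 31 of 56195 matched features. In WT the order continued with MARCKSL1 at 1598 ± 61.8 TPM, STMN1 at 677 ± 20.8, MARCKS at 364 ± 17.7, STMN3 at 202 ± 16.7, BASP1 at 123 ± 3.87, GAP43 at 94.6 ± 3.08 and STMN4 at 33.7 ± 2.63 TPM. No ranges of neighbours in this order overlapped in WT. In KO libraries GAP43 ranged from 110 to 377 TPM and overlapped MARCKS at 251 to 342 TPM and STMN3 at 198 to 224 TPM, while BASP1 ranged from 1.78 to 99.5 TPM. The merged exons of STMN1 span 6261 bases, so its TPM is low if shorter transcripts prevail.

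Proteins that work beside these genes in the growth cone were read from a list of 48, of which 46 were tested. In KO over both media 13 rose and 2 fell (median log2 0.06, against 0.00 over all genes), where 24.8% of all genes passed. In line 1, 14 rose and 10 fell, against 28.2% of all genes called; without its heavy library 14 rose and 11 fell. In line 2, 20 rose and 16 fell, against 43%; in line 3, 5 rose and 1 fell, against 5%; 26 of 46 differed among lines, against 23.2%. Of 34 genes named from the 4 lists, 32 stayed on their side of the threshold in line 1 without its heavy library and 2 passed in addition, PRKACB among them (log2 0.28, edgeR adjusted p = 0.0152). FEZ1, an adaptor for axonal transport, averaged 37.7 CPM in line 1, 48.7 CPM in line 2 and 28.5 CPM in line 3, against 18.0 ± 0.757 CPM in WT (edgeR adjusted p over both media 0.0012). The adhesion molecule gene NRCAM had log2 0.38, 0.69 and 0.53 in lines 1, 2 and 3, and the lines were not shown to differ (adjusted p = 0.0704). ELAVL4, whose protein HuD binds and stabilises GAP43 mRNA, rose by 0.58, 1.06 and 0.45 in lines 1, 2 and 3 (adjusted p = 6.01e-05, 3.83e-08 and 0.003). The adhesion genes NCAM1 (0.54, 0.51 and 0.14) and L1CAM (0.83, 1.18 and 0.21) rose in lines 1 and 2, as did RTN1 (0.42, 0.66 and 0.11), and none of these 3 passed in line 3 (adjusted p = 0.231, 0.0703 and 0.239). The intermediate filament gene PRPH stood at 6.56, 16.6 and 1.55 CPM in lines 1, 2 and 3, against 0.206 ± 0.0547 CPM in WT. DPYSL3, a collapsin response mediator, went both ways: it rose in line 1 (0.29, adjusted p = 0.00267) and line 2 (1.45, adjusted p = 4.88e-12) and fell in line 3 (-0.33, adjusted p = 0.00841). GPRIN1, a binder of G proteins in growth cones, fell over both media (-0.27, adjusted p = 0.00387). The genes named here were picked by smallest p and mostly rose. They do not stand for the list, of which 10 fell in line 1 and 16 in line 2.

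**Figure D5:**
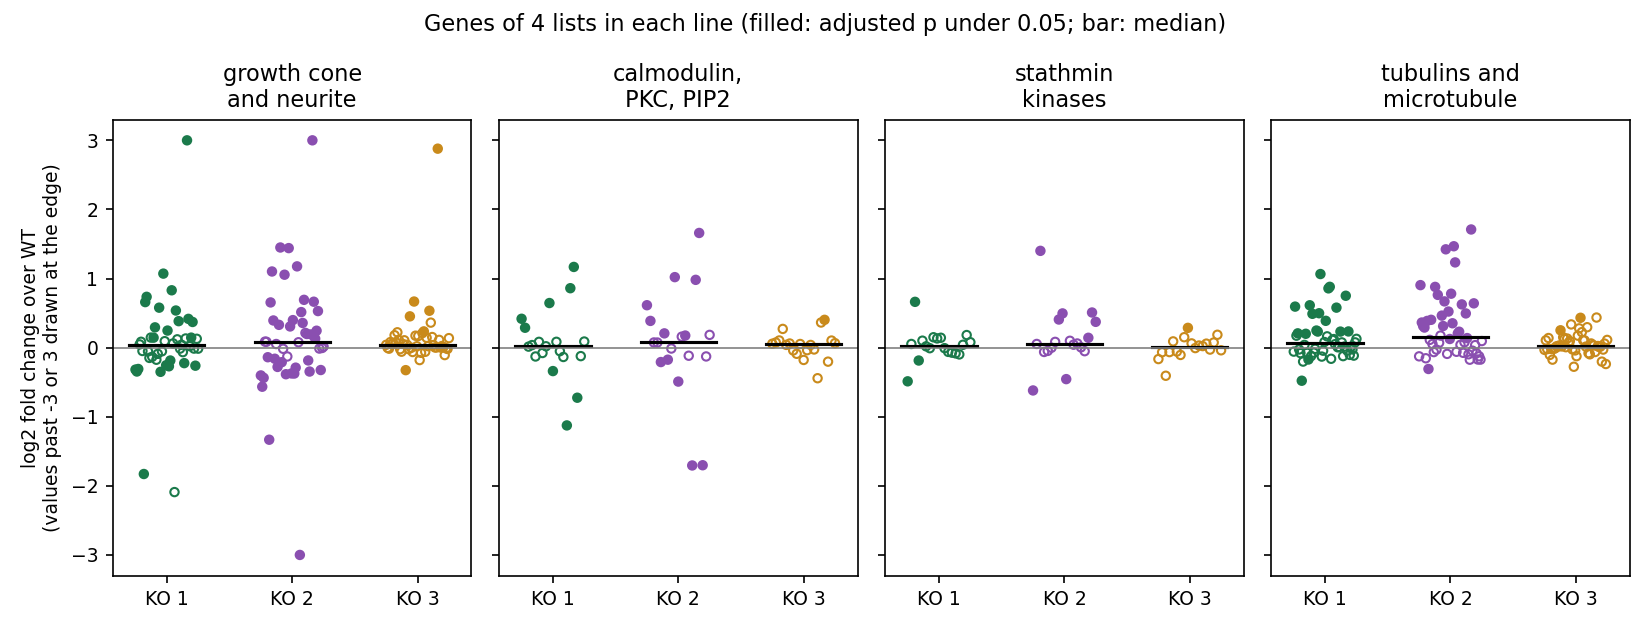
Log2 fold change over WT of the tested genes of 4 lists in KO lines 1, 2 and 3; each point is a gene, filled where the edgeR adjusted p was under 0.05, and the bar is the list's median. In the growth cone list 24 genes are filled in line 1, 36 in line 2 and 6 in line 3.

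Calmodulin binds BASP1, GAP43 and MARCKS, protein kinase C phosphorylates them, and lipid kinases and phospholipase C make and cleave the PIP2 to which they bind. Of 22 such genes 19 were tested; 6 rose and 2 fell in KO over both media (median log2 0.06), against 24.8% of all genes called. In line 1, with or without its heavy library, 5 rose and 3 fell, against 28.2% over all genes in the full fit. In line 2, 7 rose and 5 fell, against 43%; in line 3, 1 rose, against 5%, a share near that of all genes. Among lines 8 differed, against 23.2%. The calmodulin gene CALM2 rose in lines 1 and 2 (log2 0.29 and 0.39) and had 0.07 in line 3 (edgeR adjusted p = 0.496). PRKCE, a calcium-independent protein kinase C, rose in all 3 lines (1.17, 1.66 and 0.40; adjusted p = 6.05e-08, 1.67e-10 and 0.0266), and PRKCD rose in lines 1 and 2 (0.86 and 0.98). The phospholipase genes split, with PLCB1 higher (0.65 and 1.02 in lines 1 and 2) and PLCG1 lower (-0.34 and -0.49).

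Of 18 stathmin kinase and phosphatase genes, all tested, 3 rose and 1 fell in KO over both media (median log2 0.01), against 24.8% of all genes called. In line 1, 1 rose and 2 fell, against 28.2%, and without its heavy library 3 rose and 2 fell. In line 2, 6 rose and 2 fell, against 43%; in line 3, 1 rose, against 5%; 5 of 18 differed among lines, against 23.2%. These shares are near or under those of all genes, and the counts show nothing particular to the list. MAPK10, the neuronal JNK, rose in lines 2 and 3 (log2 0.50 and 0.29; edgeR adjusted p = 4.87e-05 and 0.04) and had 0.13 in line 1 (adjusted p = 0.232). PRKACB (0.30) rose over both media, and the mitotic kinase AURKB fell (-0.41). CDK1 (-0.10, adjusted p = 0.101) and PRKACA (0.09, adjusted p = 0.108) did not pass over both media; CDK1 fell in line 1 (-0.19, adjusted p = 0.017) and PRKACA rose in line 2 (0.14, adjusted p = 0.0294). Among genes that differed between lines, CAMK4 had 0.66, 1.40 and -0.41 and UHMK1 0.08, 0.37 and -0.04 in lines 1, 2 and 3.

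Of 49 genes for tubulins and microtubule-binding proteins 48 were tested, and 15 rose and 0 fell in KO over both media (median log2 0.06), where 15% of all genes rose and 9.78% fell. In line 1, 16 rose and 2 fell, against 15.4% and 12.8% of all genes; without its heavy library 16 rose and 4 fell. In line 2, 25 rose and 1 fell, against 22.9% and 20.1%. In line 3, 2 rose and 0 fell, against 3.27% and 1.73%, a share near that of all genes. Among lines 19 of 48 differed, against 23.2%. MAPT, which encodes tau, averaged 66.3 CPM in line 1, 100.1 CPM in line 2 and 43.9 CPM in line 3, against 36.4 ± 4.03 CPM in WT; it rose in lines 1 and 2 (log2 0.86 and 1.47) and had 0.28 in line 3 (edgeR adjusted p = 0.0653). The kinesin gene KIF5A (0.61, 0.88 and 0.25) and the growth cone guidance gene NAV1 (0.88, 1.23 and 0.43) rose in all 3 lines. MAP7 (1.07 and 1.42), the rescue factor gene CLASP2 (0.59 and 0.90) and TPPP3 (0.58 and 0.63) rose in lines 1 and 2, as did CLIP2 (0.21 and 0.31) and the end-binding gene MAPRE2 (0.39 and 0.78). MAPRE3 rose in line 2 (0.35). Doublecortin (DCX), a marker of migrating young neurons, fell in line 1 (-0.48, adjusted p = 0.000111) and rose in line 2 (0.39, adjusted p = 0.00025).

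The nearest tested protein-coding genes on each side of the other members gave these percents of WT, with no test. Beside GAP43, LSAMP was at 90.4% to 106% in the 6 KO libraries and ZBTB20, with a WT mean of only 1.03 CPM, at 54.9% to 101%. Beside MARCKS, HDAC2, a histone deacetylase, was at 77.7% to 88.5% in lines 1 and 2 and at 98.1% and 95.8% in line 3. The laminin gene LAMA4, with a WT mean of only 2.91 CPM, was at 239% to 636% in lines 1 and 2. In line 3 it was at 136% and 94.5%. HDAC1 and FAM229A, beside MARCKSL1, were at 79.7% to 96.5% and 79.5% to 112%. Beside the 2 genes STMN1 and STMN3, PAQR7 was at 118% to 128%, PAFAH2 at 69.7% to 93.6%, GMEB2 at 84.5% to 99.6% and RTEL1 at 67.2% to 103%. The WT mean of RTEL1 was only 1.04 CPM. HEY1, a Notch target beside STMN2, was at 40.9% to 68.8% in lines 1 and 2 and at 79.5% and 86.5% in line 3; IL7, on its other side, was at 116% to 127% in lines 1 and 2 and at 73.9% and 71.0% in line 3. TRIM35 and DPYSL2, on either side of STMN4, were at 100.3% to 119% and 106% to 128%.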

How the data were processed

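Count values per gene in 12 libraries were used as the authors deposited them: raw whole-number counts. The labels' protocols name a stranded kit for polyadenylated RNA. Per the submitters' processing notes, bcl2fastq 2.19.0, STAR 2.7.0f, GRCh38.p13, featureCounts of Subread 1.6.4, DESeq2 1.22.1 and R 3.5.1 were used. Sources used here do not give the annotation release, strand setting or handling of multi-mapping reads, so overlapping or near-identical genes are uncertain. Pseudogenes of MARCKSL1 and STMN1 had at most 5 counts.

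The counts were tested with edgeR 4.0.16 in R 4.3.3: filterByExpr, TMM factors, robust quasi-likelihood F tests, Benjamini-Hochberg adjustment over 16704 genes at 0.05. KO against WT had medium as covariate; each line against WT, the difference among lines and the medium effect came from 1 fit of line and medium on 12 libraries; the interaction had its own fit. SEs derive from F. CPM use the TMM-scaled size of the filtered library. TPM and positions use GENCODE 29 on GRCh38, where 56195 of 59087 symbols matched once. Scripts were tested on simulated data. No p-value was read for BASP1.

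The members, lists and naming rules were chosen with earlier results of these data known. Up to 6 genes per list with the smallest p in KO against WT and up to 4 in the difference among lines were named; MYO10 also as a neighbour. Some genes under these rules are not reported here. Alternatives were RLE factors, DESeq2 1.42.0, no filter, each library or line left out, single media, counts summed per line and the replicate number as a block. KO libraries of 1 number come from the same line, per the labels, and their deviations correlated at 0.0886, 0.618 and 0.661 in lines 1, 2 and 3; WT numbers pair nothing the labels name.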

Additional observations from a re-analysis of the deposited data

Results flagged for a closer look

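Among the tested members, 4 differed among the 3 knockout lines by the joint edgeR test: GAP43 (adjusted p = 5.35e-07), STMN4 (5.01e-06), MARCKS (0.00164) and MARCKSL1 (0.0248). FMR1 itself did so too (adjusted p = 0.0279), and its fold over WT was 0.441 in line 1, 0.322 in line 2 and 0.218 in line 3. The line 1 value combines its heavy library, at 58.3% of WT, with its light library, at 30.7%. Line 2 was at 33.4% and 31.0% (heavy, then light) and line 3 at 18.7% and 24.4%. The higher value of line 1 thus rests on its heavy library, and whether that library was mixed was not tested. In the lists, 26 of 46 growth cone genes, 8 of 19 calmodulin, protein kinase C and PIP2 genes, 5 of 18 stathmin kinase genes and 19 of 48 tubulin and microtubule genes differed among lines, against 23.2% of all genes.

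Of 86 groups of 6 libraries examined (KO and WT for each member, FMR1 and the named list genes), 2 had a library far from the rest by Dixon's criterion, where chance flags about 1 in 20. Both concern FMR1. In KO, line 1 heavy at 22.4 CPM left a gap of 0.631 of the range of the group. In WT, heavy 1 at 42.0 CPM left a gap of 0.734. BASP1 groups are among those examined, but the set was chosen by BASP1 levels, so nothing is read from them.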

How the results depend on the processing

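The fits over single lines and over KO against WT gave 15 calls for the members. Over 264 refits of these, 205 kept the call, 59 lost it and 0 turned the direction. The count of genes called over both media was 4135; it was 272 on counts summed per line, 18 in heavy and 231 in light medium alone, 2327, 1710 and 7415 without lines 1, 2 and 3, and 2632 to 5907 with 1 library left out. The members called, 4 of 7, became 0 on summed lines and in each medium alone, 2 without line 1 (GAP43 and STMN4), 1 without line 2 (STMN4; GAP43 had adjusted p = 0.0551), and 2 to 4 with 1 library left out. The STMN1 call over both media was lost without a filter (0.0815), with the block (0.0672) and in 8 of 12 leave-one-out fits, the MARCKS call in 7 of 12, among them the fit without line 1 heavy (0.0504). The cause was not tested.

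With 1 library left out, line 1 had 1538 to 4926 genes called (lowest without its light library), line 2 had 4200 to 7456 with 3 to 6 members, line 3 had 287 to 1269 with 1 to 2 members, and the difference among lines had 2175 to 4410. Line 3 had 1387 calls without a filter, and 300 with the replicate number as a block, where 0 members passed. Medium had 13 calls in DESeq2, 219 without a filter, 1 with the block, and 0 to 1 with 1 library left out. WT numbers share only a number with the lines: the block moved no other count of calls by over 1.5 times, and its lost member calls are given with each gene.

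BASP1 in line 1 was at 1.52% (light) and 48.6% (heavy) of WT under TMM; RLE factors and unscaled totals, added after the data were seen, moved both by less than the spread of WT. The fits of list genes, markers and MYO10 without line 1 heavy were also chosen after seeing the data; HAND2 and SNAI2 then did not pass in line 1 (adjusted p = 0.344 and 0.429). Single lines have 2 libraries each, which limits their precision.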
